A study of Mus musculus with 24 samples.

Results

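# Klf transcription factors in mouse tibialis anterior muscle after 830 nm light and exhaustive exercise

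The genes described are 10 members of the Klf family of transcription factors: Klf2, Klf3, Klf4, Klf5, Klf6, Klf9, Klf10, Klf11, Klf13 and Klf15. They were chosen by name as family members, and they are 10 of the 55487 gene identifiers counted in the series. All 10 passed the filter on low counts in every comparison.

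Klf factors bind GC-rich and CACCC sequences through zinc fingers at their carboxyl end, and differ in the activators or repressors that their amino-terminal parts recruit. Some are switched on by blood flow in endothelial cells, others by glucocorticoids, growth factors or TGF-beta. In skeletal muscle the family is best known for Klf15, which glucocorticoids induce and which promotes the use of amino acids and lipids.

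RNA was sequenced from the left tibialis anterior (TA) muscle of 24 male wild-type C57BL/6J mice aged 5 to 7 weeks, 6 in each of 4 groups. PBMT mice received 830 nm LED light at 25 mW/cm², 30 J/cm² in 20 min, and control mice were handled without light. All mice were shaved, depilated and anesthetized for 20 min, and tissue was taken 24 h later. A sham exposure matched for visible light or heat was not part of the design.

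The sedentary control and sedentary PBMT mice did not run. The fatigued control and fatigued PBMT mice ran on a treadmill to exhaustion and were killed at once. Sedentary and fatigued muscle were 2 sequencing projects, so a difference between fatigued and sedentary muscle cannot be told apart from a difference between projects. The count totals ran from 43271093 to 46904076 in sedentary controls and from 46327516 to 52775844 in sedentary PBMT mice. They ran from 56792327 to 68726155 in fatigued controls and from 53122528 to 68566029 in fatigued PBMT mice. Mitochondrial genes held 10.5% to 12.9% of the counts in fatigued mice, and 13.8% to 17.1% in all sedentary mice but one.

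The library of sedentary control replicate 4 stood apart before any gene was compared. Mitochondrial genes held 3.24% of its counts, and the next lowest library of its group held 15.5%. Leaving it out changed no call of a member. The fold change of a member is given with and without this mouse where leaving it out turned the direction or moved the value by over 1.5 times. Levels are given as CPM, counts scaled to the TMM-normalized total of the mouse, and a gene is called where its adjusted p is under 0.05 in the quasi-likelihood test of edgeR across all genes tested. In bulk muscle, fewer cells of a type and less RNA per cell cannot be told apart.

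## Levels of the members

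Per kilobase of exon, Klf9 had the highest level of the 10, with a median of 54.5 CPM per kb over the 24 mice. Klf15 came next at 19.0 CPM per kb, and Klf6 followed at 13.6 CPM per kb. Every mouse had more Klf9 than Klf15 per kb, and the ranges of these neighbours did not overlap. Klf15 was above Klf6 in 22 of 24 mice.

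Klf2 (9.47 CPM per kb), Klf4 (7.88), Klf13 (7.10) and Klf10 (6.45) followed as a block. Their order was not the same in sedentary and fatigued mice: Klf2 was above Klf4 in 12 of 12 sedentary mice, without overlap of the ranges, and in 1 of 12 fatigued mice. Klf4 was above Klf13 in 15 of 24 mice, and Klf13 above Klf10 in 14. Klf6 was above Klf2 in 22 of 24 mice. Klf10 lay above Klf11 in all 24 mice, without overlap of the ranges.

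Klf11 (1.71 CPM per kb) and Klf3 (1.48) also changed places, with Klf11 higher in 11 of 12 sedentary mice and 1 of 12 fatigued mice. With the longest transcript as length, Klf3 was above Klf11 in 22 of 24 mice. Klf5 was lowest at 0.548 CPM per kb, below Klf3 in 23 of 24 mice. Among 15097 genes with a length, 96.2% had a median below that of Klf9, and 29.1% had a median below that of Klf5. The order used the union of exons as length, and with the longest transcript 6 of the 10 members kept their place.

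**Figure D1:**
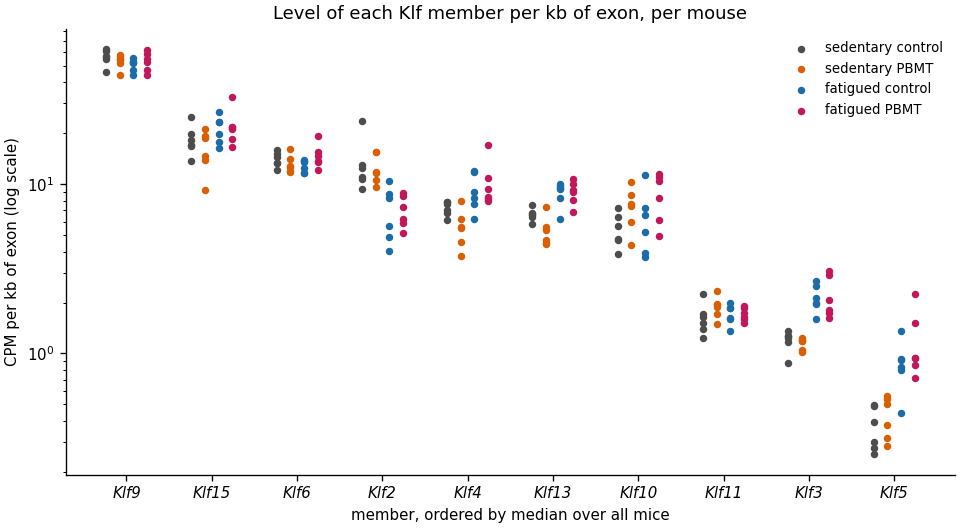
Level of each Klf member per kb of exon in each mouse, on a log scale. Members are ordered by their median over all 24 mice, and colours give the 4 groups.

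## Counts over the members in each comparison

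PBMT was compared with control in sedentary muscle over 14177 genes. None of the 10 members was called, and 4 genes were called in all (0.0282% of those tested). The unadjusted p in edgeR was under 0.05 for 3 members, against 7.63% of all genes. No member had groups that did not overlap, against 0.48% of all genes, or 1.10% without sedentary control replicate 4. The log2 fold change was positive for 3 members and negative for 7, with a median of -0.08, and its median over all genes was -0.00.

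The number of genes called in this comparison was small and moved with the tool and the mouse. It was 60 with DESeq2, 50 with limma voom and 18 without sedentary control replicate 4. It was 20 without sedentary PBMT replicate 5, 10 without sedentary PBMT replicate 2, 7 without sedentary PBMT replicate 4, and 2 without sedentary control replicate 1, 2 or 6. No member was among the genes called in any of these fits.

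In fatigued muscle 14574 genes were tested for PBMT, and none was called by edgeR (0% of genes, 0 of 10 members). DESeq2 called 2 genes and limma voom 0, and neither called a member. The unadjusted p in edgeR was under 0.05 for 1 member, Klf6, against 1.58% of all genes (230 genes). Groups that did not overlap were found for no member and for 0.0274% of all genes. The median log2 fold change was 0.06 over the members, 8 of them positive, and 0.00 over all genes.

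The PBMT effect in fatigued muscle minus the PBMT effect in sedentary muscle was tested over 15108 genes in the 24 mice. No member was called, and 1 gene was called in all (0.00662%). It was 3 genes without sedentary PBMT replicate 2, none of them a member. Only Klf6 had an unadjusted p under 0.05, against 4.4% of all genes (665 genes). The difference was positive for 9 members, with a median of 0.19, and its median over all genes was 0.02. It turned negative for Klf2 and Klf10 without sedentary control replicate 4.

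Fatigued muscle was compared with sedentary muscle separately without and with PBMT. These comparisons share no mouse with each other, but each shares its mice with the comparisons of PBMT and control. Without PBMT, 4 of the 10 members were called, and 18.6% of all genes were called (2809 of 15108). Of these members 3 were higher, against 9.1% of all genes, and 1 was lower, against 9.49% of all genes. Groups did not overlap for 1 member, Klf3, and for 7.7% of all genes. The number of genes called was 4945 with limma voom, and the same members were called, with Klf9 in addition.

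With PBMT, 5 members were called, and 26.8% of all genes were called (4051 of 15108). Of the 5, 4 were higher (14.1% of all genes) and 1 was lower (12.7% of all genes). For 4 members the groups did not overlap, as for 11.2% of all genes. The median log2 fold change of the members was 0.21 without PBMT and 0.34 with PBMT, and the median over all genes was -0.01 and 0.00.

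Each member called in these comparisons was called again with any of the 24 mice left out and in each of the 9 other fits. Without sedentary control replicate 4, Klf3 was again the only member whose groups did not overlap in the absence of PBMT, against 15.3% of all genes. In the exact permutation tests, which were not adjusted, the p was under 0.05 for 4 members without PBMT, against 29.7% of all genes, and for 5 with PBMT, against 37.6%. For PBMT against control it was under 0.05 for 2 members in sedentary muscle (7.84% of all genes) and for 0 in fatigued muscle (1.92%).

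**Figure D2:**
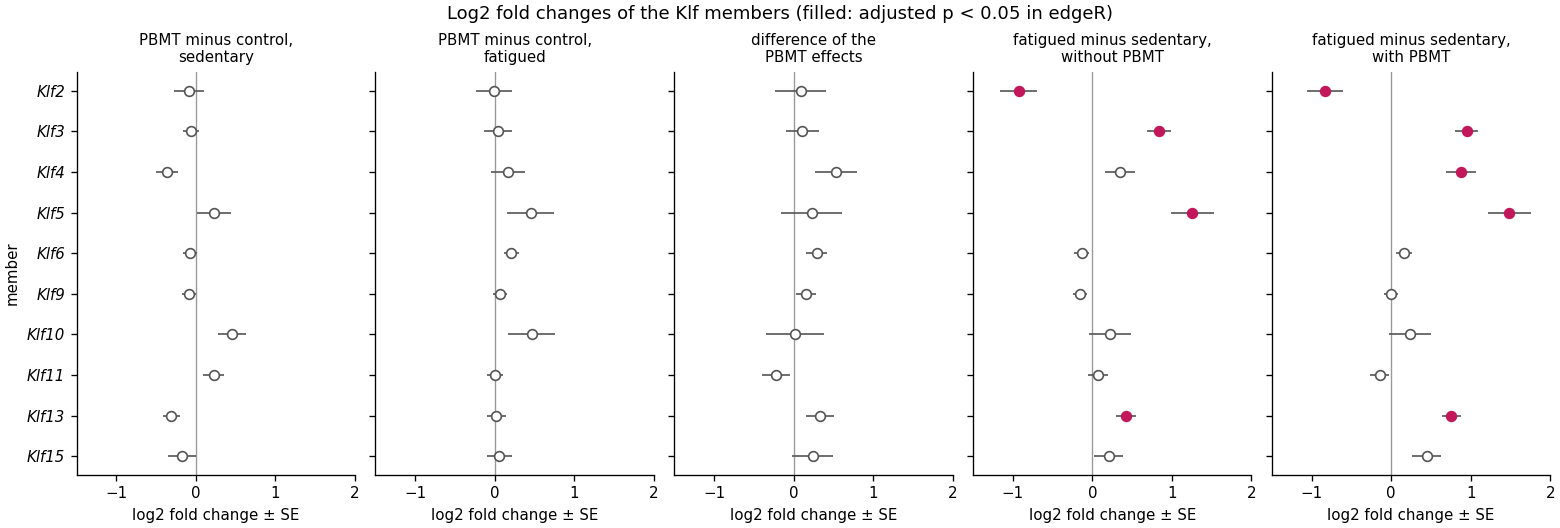
Log2 fold changes of the 10 members with their standard errors in each comparison. Filled points were called by edgeR at an adjusted p under 0.05 over all genes tested.

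## Klf2 and Klf4, factors of the endothelium

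Klf2 is switched on by blood flow in endothelial cells and activates Nos3 and Thbd. It ran from 17.3 to 43.3 CPM in sedentary controls (median 21.6, n = 6) and from 17.7 to 28.8 CPM in sedentary PBMT mice (median 21.7, n = 6). Among fatigued controls it ran from 7.46 to 19.3 CPM (median 12.9, n = 6), and in fatigued PBMT mice from 9.57 to 16.3 CPM (median 12.5, n = 6). The highest value belonged to sedentary control replicate 4, far above the rest of its group. Among PBMT mice every fatigued mouse was below every sedentary mouse, and among controls only the highest fatigued mouse reached into the sedentary range.

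Klf2 fell in fatigued muscle without PBMT, with a log2 fold change of -0.93 (SE 0.230, edgeR adjusted p = 0.00711). With sedentary control replicate 4 left out it was -0.69 (edgeR adjusted p = 0.0164). With PBMT the log2 fold change of Klf2 between fatigued and sedentary muscle was -0.83 (SE 0.230, edgeR adjusted p = 0.00948). Klf2 was the only member that was lower in fatigued muscle at the threshold in either comparison.

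PBMT left Klf2 without a called difference in sedentary or fatigued muscle. In sedentary muscle its log2 fold change was -0.09 (SE 0.194), and without sedentary control replicate 4 it was 0.14 (SE 0.130). The sign in this comparison therefore depended on the mouse with the low mitochondrial share. In fatigued muscle its log2 fold change was -0.00 (SE 0.225), and the difference between the PBMT effects was 0.09 (SE 0.323), or -0.15 without that mouse (SE 0.282).

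Klf4, which restrains inflammation in endothelial cells and is also a pluripotency factor, ran from 18.8 to 24.1 CPM in sedentary controls (median 22.4, n = 6). It ran from 11.4 to 24.3 CPM in sedentary PBMT mice (median 16.9, n = 6). In these sedentary mice 4 of 6 PBMT values lay below every control, but the highest sedentary value also belonged to a PBMT mouse. In fatigued controls Klf4 ran from 19.1 to 36.7 CPM (median 26.4, n = 6) and in fatigued PBMT mice from 24.4 to 52.2 CPM (median 26.9, n = 6). All fatigued PBMT mice were above all sedentary PBMT mice, by a narrow margin at the closest pair.

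Klf4 rose in fatigued muscle with PBMT, with a log2 fold change of 0.88 (SE 0.190, edgeR adjusted p = 0.00152). Leaving out single mice gave between 0.67 and 1.01, and each time it was called. Without PBMT the log2 fold change of Klf4 was 0.34 (SE 0.189, edgeR adjusted p = 0.214) and it was not called. The test of the difference between these contrasts is the test of the difference between the PBMT effects, which gave 0.53 for Klf4 (SE 0.267, edgeR adjusted p = 0.946), or 0.32 without fatigued PBMT replicate 3 (SE 0.225). A difference between the exercise contrasts without and with PBMT was thus not shown for Klf4.

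In sedentary muscle the log2 fold change of Klf4 with PBMT was -0.36 (SE 0.141, edgeR adjusted p = 0.601). The exact permutation test over the 12 mice gave p = 0.0390, and p = 0.0303 without sedentary control replicate 4. Klf4 was not called in this comparison by any tool or with any mouse left out. In fatigued muscle its log2 fold change with PBMT was 0.16 (SE 0.211), and it was -0.04 without fatigued PBMT replicate 3, which held the highest value.

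Of 14 genes that act upstream of Klf2 and Klf4 or are induced by them in endothelium, 13 were tested for PBMT in sedentary muscle and 14 elsewhere. None was called for PBMT in either muscle. Fatigued muscle without PBMT had 3 of 14 called (18.6% of all genes), all higher: Heg1 (log2 fold change 1.05), Thbd (1.19) and Nos3 (0.82). With PBMT 4 of 14 were called (26.8% of all genes). The same genes were higher, with log2 fold changes of 1.12 for Heg1, 1.43 for Thbd and 1.02 for Nos3. Mef2c was lower there (-0.34), but not when any of 7 mice was left out, with an edgeR adjusted p up to 0.0664 without sedentary PBMT replicate 1. With the GC trend removed Mef2c was at -0.14 and was not called (edgeR adjusted p = 0.205). The median log2 fold change of the list was 0.05 without PBMT, with 5 of 14 genes negative, and 0.09 with PBMT, with 6 negative.

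## Klf3 and Klf5

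Klf3, a repressor that recruits Ctbp proteins, ran from 9.82 to 15.3 CPM in sedentary controls (median 14.1, n = 6). It ran from 11.4 to 13.8 CPM in sedentary PBMT mice (median 13.3, n = 6). Its values in fatigued controls ran from 18.0 to 29.9 CPM (median 23.1, n = 6), and those in fatigued PBMT mice from 18.2 to 34.6 CPM (median 21.8, n = 6). Every fatigued mouse was above every sedentary mouse, with and without PBMT. The CPM range was also wider in the fatigued groups than in the sedentary groups, at a higher level, and the difference in spread was not tested.

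The log2 fold change of Klf3 between fatigued and sedentary muscle without PBMT was 0.84 (SE 0.147, edgeR adjusted p = 2.94e-04). Without sedentary control replicate 4, which had the lowest Klf3 of all mice, it was 0.76 (edgeR adjusted p = 6.83e-04). With PBMT it was 0.95 (SE 0.147, edgeR adjusted p = 3.95e-05). The exact permutation test gave p = 0.00216 in each comparison, the smallest value that 6 mice against 6 can give.

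With PBMT the log2 fold change of Klf3 was -0.06 in sedentary muscle (SE 0.102) and 0.04 in fatigued muscle (SE 0.176). Neither was called, and the difference between the PBMT effects was 0.11 (SE 0.206). Without sedentary control replicate 4 the sedentary value was -0.14 (SE 0.0692, edgeR adjusted p = 0.548) and the difference was 0.18 (SE 0.203). In that set of 5 and 6 mice the exact permutation test gave p = 0.0346, against p = 0.615 with all 12 mice. The gene Gm20033 lies on the opposite strand over 404 exonic bases of Klf3, which is 3.59% of them, and its count was at most 2.46% of the Klf3 count in any mouse.

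Klf5, which takes part in the differentiation of fat and smooth muscle cells, was the least abundant member per kb. It ran from 1.32 to 2.58 CPM in sedentary controls (median 1.80, n = 6) and from 1.48 to 2.90 CPM in sedentary PBMT mice (median 2.29, n = 6). Fatigued controls had 2.33 to 7.07 CPM (median 4.55, n = 6) and fatigued PBMT mice had 3.73 to 11.7 CPM (median 4.89, n = 6). With PBMT the fatigued and sedentary mice did not overlap. Without PBMT a single fatigued control reached down into the sedentary range.

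Klf5 had the largest log2 fold change of the members in both exercise comparisons. Without PBMT it was 1.26 (SE 0.275, edgeR adjusted p = 0.00238), and 1.17 without sedentary control replicate 4 (edgeR adjusted p = 0.00525). With PBMT it was 1.49 (SE 0.272, edgeR adjusted p = 2.72e-04). For PBMT against control the log2 fold change of Klf5 was 0.23 in sedentary muscle (SE 0.219) and 0.45 in fatigued muscle (SE 0.297), and neither was called. The sedentary value was 0.14 without sedentary control replicate 4 (SE 0.215), and the fatigued value was 0.17 without fatigued PBMT replicate 5 (SE 0.246). In the 9 other fits the sedentary value ran from 0.0356 to 0.233 and the fatigued value from 0.251 to 0.455, without a call. The difference between these effects was 0.23 (SE 0.383).

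The genes for cofactors and regulators of Klf proteins given here are a part of the list tested. Ctbp1, Sin3a and Crebbp were not called for PBMT in either muscle. Without PBMT, Crebbp (log2 fold change 0.38) was called higher in fatigued muscle and Sin3a (-0.33) lower, in every fit. With PBMT, Crebbp (0.28) was called higher, while Sin3a (-0.48), Wwp1 (-0.48), Kat2b (-0.33) and Hdac2 (-0.20) were lower. Over all genes 18.6% were called without PBMT and 26.8% with PBMT. Crebbp lost its call where the GC trend was removed (edgeR adjusted p = 0.0721). Hdac2 did so too (edgeR adjusted p = 0.794), and also without sedentary PBMT replicate 6 (edgeR adjusted p = 0.0615) and with no filter.

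**Figure D3:**
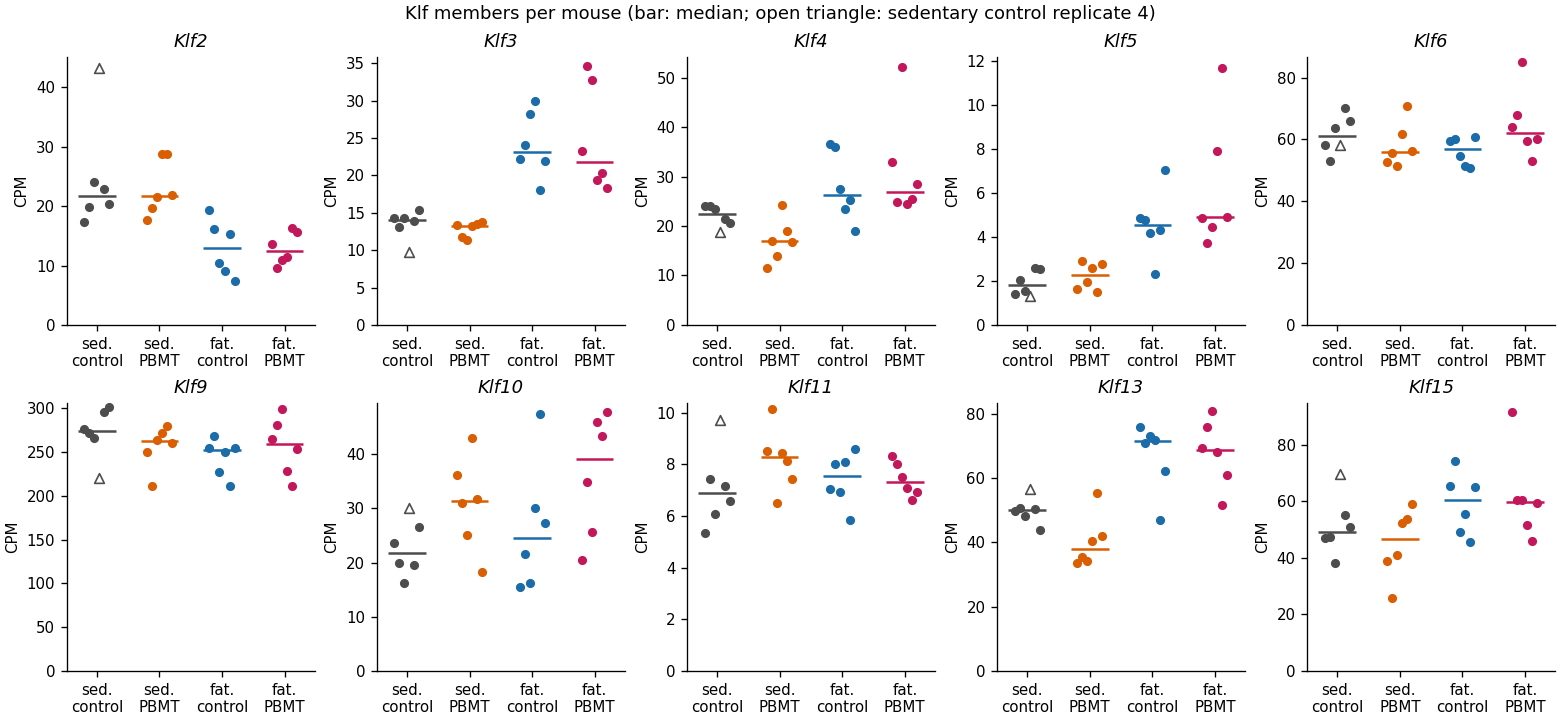
CPM of each of the 10 members in each of the 24 mice. Bars are group medians, and the open triangle is sedentary control replicate 4.

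## Klf6, Klf10 and Klf11, factors induced by growth signals and TGF-beta

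Klf6 is an early response gene in injured tissue. It ran from 53.1 to 70.3 CPM in sedentary controls (median 61.1, n = 6) and from 51.5 to 70.9 CPM in sedentary PBMT mice (median 56.0, n = 6). After exercise it ran from 50.9 to 60.7 CPM in controls (median 57.1, n = 6) and in fatigued PBMT mice from 53.0 to 85.0 CPM (median 62.2, n = 6). All groups overlapped, and the highest value by a margin belonged to fatigued PBMT replicate 3. That mouse was also highest for Klf4.

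With PBMT the log2 fold change of Klf6 was 0.21 in fatigued muscle (SE 0.0971, edgeR adjusted p = 1.00). The exact permutation test gave p = 0.0779 there. Without fatigued PBMT replicate 3 the value was 0.12 (SE 0.0748), and its unadjusted p was above 0.05. In sedentary muscle it was -0.08 (SE 0.0883, edgeR adjusted p = 0.812). The difference between the PBMT effects was 0.29 (SE 0.135, edgeR adjusted p = 0.946), and was not called.

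Between fatigued and sedentary muscle Klf6 had log2 fold changes of -0.13 without PBMT (SE 0.0952) and 0.16 with PBMT (SE 0.0951). It was not called in either. With the GC trend removed, its value with PBMT was 0.31 and it was called (edgeR adjusted p = 0.0257).

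Klf10, named for its rapid induction by TGF-beta, ran from 16.2 to 30.1 CPM in sedentary controls (median 21.7, n = 6). It ran from 18.3 to 43.03 CPM in sedentary PBMT mice (median 31.4, n = 6), where 4 of 6 mice lay above every control. In fatigued controls it ran from 15.5 to 47.5 CPM (median 24.5, n = 6) and in fatigued PBMT mice from 20.6 to 47.8 CPM (median 39.1, n = 6). The medians were higher with PBMT in both muscles, but the groups overlapped widely. The spread between mice was among the largest of the members.

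The log2 fold change of Klf10 with PBMT was 0.45 in sedentary muscle (SE 0.182, edgeR adjusted p = 0.609, exact permutation p = 0.0887). It was 0.54 without sedentary control replicate 4 (SE 0.202, edgeR adjusted p = 0.442). In fatigued muscle it was 0.46 (SE 0.294, edgeR adjusted p = 1.00, exact permutation p = 0.143), and 0.72 without fatigued control replicate 5 (SE 0.254). Neither was called by any tool, and the difference between the PBMT effects was 0.02 (SE 0.370). It was -0.08 without sedentary control replicate 4 (SE 0.382) and 0.27 without fatigued control replicate 5 (SE 0.329). Between fatigued and sedentary muscle the log2 fold change of Klf10 was 0.22 without PBMT and 0.24 with PBMT, and neither was called.

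Klf11, a close relative of Klf10 that also recruits Sin3a, ran from 5.35 to 9.73 CPM in sedentary controls (median 6.88, n = 6). It ran from 6.50 to 10.1 CPM in sedentary PBMT mice (median 8.28, n = 6). In fatigued controls it ran from 5.85 to 8.60 CPM (median 7.53, n = 6), and in fatigued PBMT mice from 6.60 to 8.31 CPM (median 7.30, n = 6). All 4 groups overlapped. Sedentary control replicate 4 was the highest of the sedentary controls.

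The log2 fold change of Klf11 with PBMT in sedentary muscle was 0.22 (SE 0.133, edgeR adjusted p = 0.677, exact permutation p = 0.1602). Without sedentary control replicate 4 it was 0.33 (SE 0.113, edgeR adjusted p = 0.398, exact permutation p = 0.0346). In fatigued muscle it was -0.00 (SE 0.0999). With all mice, Klf11 was the only member whose difference between the PBMT effects was negative, at -0.22 (SE 0.174, edgeR adjusted p = 0.946). Its log2 fold changes between fatigued and sedentary muscle were 0.07 without PBMT and -0.15 with PBMT, and neither was called. When that control was left out the difference was -0.33 (SE 0.153, edgeR adjusted p = 0.966), and the exercise value without PBMT was 0.18 (SE 0.111, edgeR adjusted p = 0.245).

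Of 11 genes of TGF-beta signalling none was called for PBMT in either muscle. Smad3 was called higher in fatigued muscle without PBMT (log2 fold change 0.55), and so was Tgfb3 (0.23). The call of Tgfb3 ended when any of 7 mice was left out, with an edgeR adjusted p up to 0.121 without fatigued control replicate 1. Without PBMT 2 of the 11 were thus called (18.6% of all genes), and with PBMT 7 were (26.8% of all genes). Smad3 (0.97), Tgfb1 (0.84), Tgfb3 (0.36), Smad7 (0.52), Skil (0.60) and Tgfbr2 (0.40) were higher, and Smad2 (-0.28) was lower. Skil lost its call without fatigued PBMT replicate 3 (edgeR adjusted p = 0.0513), and Tgfbr2 without fatigued PBMT replicate 5 (edgeR adjusted p = 0.0675).

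Of 20 immediate early genes 19 were tested for PBMT in sedentary muscle, where 0.0282% of all genes were called. Egr1 alone was called (log2 fold change 2.98, edgeR adjusted p = 0.0139). That call ended without any of 5 of the sedentary controls, with an edgeR adjusted p up to 0.0819 without sedentary control replicate 6. It also ended with all 24 mice in the fit (edgeR adjusted p = 0.113) and with no filter (edgeR adjusted p = 0.0513). In fatigued muscle without PBMT 10 of 20 were called (18.6% of all genes), all higher: Atf3, Nr4a3, Egr1, Jun, Nr4a2, Fosl1, Myc, Fos, Junb and Nr4a1. Their log2 fold changes ran from 0.71 (Nr4a1) to 4.75 (Nr4a3). The calls of Myc, Fos, Junb and Nr4a1 ended without single mice. The highest edgeR adjusted p was 0.108, for Fos without fatigued control replicate 6. With PBMT 12 were called (26.8% of all genes), all higher: Atf3, Fosl2, Nr4a3, Nr4a2, Nr4a1, Fosl1, Myc, Ier5, Jun, Fosb, Btg2 and Junb. Their log2 fold changes ran from 0.67 (Jun) to 5.00 (Atf3). The call of Btg2 ended without any of 3 mice, with an edgeR adjusted p up to 0.113 without fatigued PBMT replicate 3. It also ended in 2 other fits. That of Junb ended without any of 5 mice (edgeR adjusted p up to 0.109, without fatigued PBMT replicate 3) and in 4 other fits. With limma voom the adjusted p of Junb was 0.132. Klf6 and Klf10 were not called in either of these comparisons.

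## Klf9, Klf13 and Klf15, factors linked to glucocorticoids and metabolism

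Klf9, which glucocorticoids and thyroid hormone induce, ran from 221 to 302 CPM in sedentary controls (median 274, n = 6). It ran from 212 to 280 CPM in sedentary PBMT mice (median 262, n = 6). In fatigued controls it ran from 212 to 268 CPM (median 252, n = 6) and in fatigued PBMT mice from 212 to 300 CPM (median 259, n = 6). The 4 groups covered nearly the same range. The lowest sedentary control was replicate 4.

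No comparison called Klf9 in edgeR. Its log2 fold change with PBMT was -0.08 in sedentary muscle (SE 0.0877) and 0.07 in fatigued muscle (SE 0.0863), and the effects differed by 0.16 (SE 0.123, edgeR adjusted p = 0.946). The sedentary value was -0.14 without sedentary control replicate 4 (SE 0.0690, edgeR adjusted p = 0.555), and the exact permutation p was 0.0519, against 0.366 with all 12 mice. Between fatigued and sedentary muscle it was -0.15 without PBMT (SE 0.0870, edgeR adjusted p = 0.227) and 0.00 with PBMT (SE 0.0870), a value whose sign turned without that mouse. The value without PBMT was then -0.21 (edgeR adjusted p = 0.0658, exact permutation p = 0.00866). Klf9 was called in that comparison by limma voom alone, at -0.18 (limma adjusted p = 0.0368).

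Klf13, a close relative of Klf9, ran from 43.8 to 56.5 CPM in sedentary controls (median 50.1, n = 6). In sedentary PBMT mice it ran from 33.5 to 55.3 CPM (median 38.0, n = 6), where 5 of 6 mice lay below every control. In fatigued controls it ran from 47.0 to 75.9 CPM (median 71.4, n = 6), and in fatigued PBMT mice from 51.6 to 80.9 CPM (median 68.7, n = 6). In each exercise comparison 5 of 6 fatigued mice lay above every sedentary mouse. The mouse that kept the PBMT and control groups from separating at rest was sedentary PBMT replicate 5.

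Klf13 rose in fatigued muscle without PBMT, with a log2 fold change of 0.42 (SE 0.122, edgeR adjusted p = 0.0168). It was 0.46 without sedentary control replicate 4 (edgeR adjusted p = 0.0119). With PBMT it was 0.76 (SE 0.122, edgeR adjusted p = 6.41e-05). The difference between the PBMT effects, which is also the difference between these contrasts, was 0.33 (SE 0.172, edgeR adjusted p = 0.946). It was not called, so the larger value with PBMT was not shown to differ from the value without.

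With PBMT in sedentary muscle Klf13 had the smallest edgeR adjusted p of the members, 0.552, at a log2 fold change of -0.31 (SE 0.109). The exact permutation test gave p = 0.0303, and p = 0.0606 without sedentary control replicate 4. Leaving out single mice gave between -0.42 and -0.26, with the smallest edgeR adjusted p at 0.0673. Klf13 was not called by any tool. In fatigued muscle its log2 fold change with PBMT was 0.02 (SE 0.123).

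Klf15, the factor induced by glucocorticoids in muscle, ran from 38.1 to 69.5 CPM in sedentary controls (median 49.2, n = 6) and from 25.7 to 59.1 CPM in sedentary PBMT mice (median 46.6, n = 6). The fatigued controls had 45.4 to 74.2 CPM (median 60.3, n = 6) and the fatigued PBMT mice had 46.1 to 91.4 CPM (median 59.9, n = 6). The highest sedentary value was that of sedentary control replicate 4, and the highest of all was that of fatigued PBMT replicate 1. All groups overlapped.

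The log2 fold change of Klf15 with PBMT was -0.18 in sedentary muscle (SE 0.175) and 0.06 in fatigued muscle (SE 0.159). Neither was called, and the difference between these effects was 0.24 (SE 0.257). With sedentary control replicate 4 left out, the sedentary value was -0.08 (SE 0.189) and the difference was 0.13 (SE 0.258). Between fatigued and sedentary muscle it was 0.20 without PBMT (SE 0.182, edgeR adjusted p = 0.468) and 0.45 with PBMT (SE 0.182, edgeR adjusted p = 0.0729). The value without PBMT was 0.31 when sedentary control replicate 4 was left out (edgeR adjusted p = 0.249). The value with PBMT was called without sedentary PBMT replicate 6 (edgeR adjusted p = 0.0363), by DESeq2 (adjusted p = 0.0488) and by limma voom (adjusted p = 0.0458).

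Of 15 genes for amino acid and lipid use that Klf15 is known to promote, none was called for PBMT in either muscle. Without PBMT 6 were called in fatigued muscle (18.6% of all genes). Prodh was higher (log2 fold change 0.53), while Acadm (-0.37), Etfdh (-0.32), Slc25a20 (-0.28), Gpt (-0.35) and Slc27a1 (-0.39) were lower. Only Acadm and Etfdh were called in every fit. The highest edgeR adjusted p among left-out mice was 0.108 for Prodh (fatigued control replicate 1) and 0.0825 for Slc27a1 (sedentary control replicate 4). For Slc25a20 and Gpt it was 0.0943 and 0.0747, both without sedentary control replicate 3. With PBMT 3 of 15 were called (26.8% of all genes), in every fit and all higher: Gpt2 (0.45), Pdk4 (0.94) and Prodh (0.64). The median log2 fold change of the list was -0.19 without PBMT, with 11 of 15 genes negative, and -0.07 with PBMT, with 10 negative.

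Of 16 glucocorticoid-responsive genes none was called for PBMT in the main fit. Foxo1 came closest in sedentary muscle, at a log2 fold change of -0.55 (SE 0.105, edgeR adjusted p = 0.0896). It was called there without sedentary control replicate 4 (edgeR adjusted p = 0.0380) and without sedentary PBMT replicate 5 (edgeR adjusted p = 0.0467). It was also called by DESeq2 (adjusted p = 0.00173) and limma voom (adjusted p = 0.0310), with no filter (edgeR adjusted p = 0.0174), and with the length trend (edgeR adjusted p = 0.0320) or the GC trend removed (edgeR adjusted p = 0.0327). Zbtb16, at -0.44 (edgeR adjusted p = 0.168), was called there by DESeq2 (adjusted p = 0.0156) and limma voom (adjusted p = 0.0353). In fatigued muscle without PBMT 11 of 16 were called (18.6% of all genes): Foxo1, Trim63, Mt1, Zbtb16, Nr3c1, Mt2, Fkbp5 and Foxo3 were higher, and Sgk1, Ddit4 and Cebpd were lower. The call of Ddit4 ended without any of 5 mice, with an edgeR adjusted p up to 0.0776 without fatigued control replicate 6. That of Cebpd (edgeR adjusted p = 0.0497) ended without any of 21 mice, up to 0.128 without sedentary control replicate 4, and in 5 other fits. With PBMT 10 were called (26.8% of all genes): the same 8 genes and Hsd11b1 were higher, and Sgk1 was lower. Hsd11b1 lost its call without sedentary PBMT replicate 5 (edgeR adjusted p = 0.0515).

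Of 17 clock genes Nfil3 alone was called for PBMT, in sedentary muscle, where 0.0282% of all genes were called. Nfil3 was lower there (log2 fold change -0.96, edgeR adjusted p = 9.25e-04). It was also the only gene called for the difference between the PBMT effects (1.11, edgeR adjusted p = 0.00370). In fatigued muscle without PBMT 4 were called (18.6% of all genes): Nfil3 (0.89) and Cry2 (0.66) were higher, and Bhlhe40 (-0.63) and Dbp (-0.62) were lower. With PBMT 8 were called (26.8% of all genes): Nfil3, Cry2 and Per2 were higher, and Nr1d1, Clock, Bhlhe40, Nr1d2 and Dbp were lower. The call of Per2 ended without any of 3 mice (edgeR adjusted p up to 0.0534, without sedentary PBMT replicate 1). With the GC trend removed Per2 was not called (edgeR adjusted p = 0.0622), nor was Nr1d2 (edgeR adjusted p = 0.0938).

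## Other genes of the Klf and Sp families

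The other 16 Klf and Sp genes share the zinc fingers of the members. Of these, 9 were tested in the fit to all 24 mice, and 7 (Klf1, Klf14, Klf17, Sp5, Sp6, Sp8 and Sp9) were too low for any test. Klf17 and Sp8 had no count in any mouse. None was called for PBMT. Klf16 came closest in sedentary muscle, at a log2 fold change of -0.52 (SE 0.164, edgeR adjusted p = 0.430).

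In fatigued muscle without PBMT 0 of 9 were called by edgeR, against 18.6% of all genes. Sp3 came closest, at -0.24 (edgeR adjusted p = 0.148). It was called without sedentary control replicate 4 (edgeR adjusted p = 0.0104) and by limma voom (adjusted p = 0.00208). With PBMT 4 of 9 were called, against 26.8% of all genes: Klf16 (0.72) and Klf7 (0.31) were higher, and Sp4 (-0.72) and Sp3 (-0.40) were lower. Sp3 lost its call where the GC trend was removed (edgeR adjusted p = 0.105).

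## How the members varied together among mice

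After the mean of each group was subtracted, 45 pairs of members were correlated over the 24 mice with permutation of mice within groups. Of the 45, 27 had a positive Pearson r and 18 a negative one, with a median of 0.06. At an adjusted p under 0.05 over the 45 pairs, 3 passed: Klf6 with Klf9, Klf3 with Klf9, and Klf6 with Klf13. Each had a permutation adjusted p of 0.0312. They describe differences between mice of a group, whose cause was not tested.

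Klf6 and Klf9 had r = 0.69 and rho = 0.75 (permutation p = 0.00111 for r). Without the 2 mice farthest from the median of Klf6, r was 0.62. It was 0.47 within the sedentary mice and 0.86 within the fatigued mice. This was the only pair that also passed by rank (permutation adjusted p = 0.0126).

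Klf3 and Klf9 had r = 0.66 and rho = 0.57 (permutation p = 0.00183 for r). Klf6 and Klf13 had r = 0.62 and rho = 0.51 (permutation p = 0.00208 for r). Without the 2 mice farthest from the median of the first gene, r was 0.58 for Klf3 and Klf9 and 0.45 for Klf6 and Klf13. When sedentary control replicate 4 was left out, r was 0.59 for Klf3 and Klf9 and 0.66 for Klf6 and Klf13. Without that mouse 5 pairs passed: Klf6 with Klf9, Klf3 with Klf13, Klf6 with Klf13, Klf9 with Klf13, and Klf9 with Klf15. Klf3 with Klf9 was no longer among them.

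The genes most like each member were sought among the other genes tested in the 24 mice, by Pearson r after subtracting group means. For Klf15 they were Pnrc1 (r = 0.93) and Dcaf8 (r = 0.93), the closest of any member. For Klf13 they were Mn1 and Jade2 (both r = 0.89), and for Klf9 they were Cep85l and Zbtb38 (both r = 0.87).

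Klf3 was most like Tiparp and Pde4b (both r = 0.86), and Klf2 was most like Scand1 (r = 0.83) and Dmwd (r = 0.80). Klf10 was most like Zfp629 (r = 0.83) and Arrdc4 (r = 0.81). For Klf5 the genes were Chrdl1 (r = 0.82) and Bmp3 (r = 0.81), and for Klf11 they were Apeh (r = 0.80) and Anxa6 (r = 0.77). Klf4 was most like Ccn2 (r = 0.78) and Clic4 (r = 0.75), and Klf6 was most like Ptrhd1 (r = 0.78) and Errfi1 (r = 0.77). For the genes given for Klf2, r was 0.75 and 0.71 without sedentary control replicate 4, and for those of Klf11 it was 0.70 and 0.65. No other member was among these genes, and the likeness is a description without a test.

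## Cell types in the samples

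The samples held the fast fibre genes of a TA muscle, with median sums of 118077, 132093, 166111 and 160591 CPM over 9 genes in the order sedentary control, PBMT, then fatigued control, PBMT, most of all Myh4. In fatigued muscle 4 of 9 were called higher without PBMT (Acta1, Ckm, Myh4 and Tnnt3), against 9.1% of all genes, and 3 with PBMT (Acta1, Myh4 and Tnnt3), against 14.1%. The slow fibre genes summed to 68.9 to 171 CPM over 6 genes, with Myl3 the most abundant. In fatigued muscle Atp2a2 was called higher without PBMT (9.1% of all genes) and with PBMT (14.1%). Myl3 was called lower without PBMT (9.49% of all genes). Markers of other cell types moved with the exercise comparisons, and their part in the results on the members was not tested. No marker list had a gene at 0 in every mouse, and 7 of 9 keratinocyte genes were at 0 in some mouse. The median sum of the keratinocyte list lay between 3.34 and 4.15 CPM in the 4 groups, and Krt10 was its most abundant gene.

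The keratinocyte sum was 32.6 CPM in sedentary PBMT replicate 4 and 12.8 CPM in sedentary PBMT replicate 2, and 7.78 CPM or less in every other mouse. Replicate 4 also had the highest Klf4 and the highest Klf10 of the sedentary PBMT mice. Without it, the log2 fold change with PBMT in sedentary muscle was -0.49 for Klf4 (SE 0.121, edgeR adjusted p = 0.257) and 0.33 for Klf10 (SE 0.170, edgeR adjusted p = 0.750). Krt10 was called lower in fatigued muscle with PBMT (log2 fold change -1.52, edgeR adjusted p = 0.00493), as were 12.7% of all genes. Sedentary PBMT replicates 2 and 4 belong to that comparison. Without PBMT its log2 fold change was -0.47 (edgeR adjusted p = 0.419). For PBMT in sedentary muscle it was 0.97 (edgeR adjusted p = 0.662), and neither was called.

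The 10 endothelial markers, which matter for Klf2 and Klf4, had median sums of 369, 359, 419 and 420 CPM in the same order of groups. Cdh5 was the most abundant. None was called for PBMT. Fatigued muscle without PBMT had 2 of 10 called, both higher (18.6% of all genes were called), and with PBMT 3 were called higher and 1 lower (26.8% of all genes were called). The sums of fatigued and sedentary mice overlapped, and their part in the result on Klf2 was not tested.

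The 7 adipocyte markers, which matter for Klf5, summed to 244 to 334 CPM in sedentary controls and 175 to 278 CPM in sedentary PBMT mice. They summed to 352 to 526 CPM in fatigued controls and 395 to 535 CPM in fatigued PBMT mice. Plin4 held most of this sum, at 155 to 517 CPM. Without Plin4 the other 6 had median sums of 23.5, 23.2, 26.9 and 37.3 CPM in the order above, and the groups overlapped. Without PBMT 1 of 7 was called higher in fatigued muscle (9.1% of all genes), Plin4 (log2 fold change 0.68). With PBMT 2 of 7 were called higher (14.1% of all genes), Plin4 (1.09) and Cidec (1.56).

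The 9 fibroblast markers, led by Col3a1, had median sums of 876, 645, 1376 and 1286 CPM in that order of groups. In fatigued muscle 8 of 9 were called higher with PBMT (14.1% of all genes) and 1 of 9 without (9.1% of all genes), and none was called for the difference between the PBMT effects. The 8 myeloid markers, led by Lyz2, had median sums of 61.3, 42.3, 73.0 and 70.5 CPM in the same order. Of these, 6 were called higher in fatigued muscle with PBMT (14.1% of all genes) and 1 without (9.1% of all genes), and again none for the difference between the PBMT effects. For both lists the highest sum of all mice was that of fatigued PBMT replicate 5, which also had the highest Klf5.

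The 9 mural markers, led by Des, had median sums of 3785, 4063, 4512 and 4306 CPM, and 6589 CPM in sedentary control replicate 4. The next highest sedentary control had 3930 CPM. Des, which muscle fibres also express, held most of this sum, and the other 8 genes had median sums of 660, 633, 710 and 658 CPM, and 540 CPM in sedentary control replicate 4. Of the 9, Acta2 and Myh11 were called higher in fatigued muscle without PBMT (9.1% of all genes) and with PBMT (14.1%). Their log2 fold changes were 0.44 and 0.64 without PBMT and 0.46 and 0.56 with PBMT. The 6 tendon markers, led by Fmod, had median sums of 157, 164, 324 and 298 CPM. In fatigued muscle without PBMT 1 of the 6 was called higher, Thbs4 (9.1% of all genes). With PBMT 3 of the 6 were, Fmod, Thbs4 and Kera (14.1% of all genes). The 6 erythroid markers (Hbb-bs) and the 6 satellite cell markers (Cdh15) had overlapping sums in all 4 groups, from 35.5 to 156 CPM and 30.4 to 61.7 CPM. Of these, Pax7 alone was called, lower in fatigued muscle with PBMT (log2 fold change -0.67, edgeR adjusted p = 0.0162). There 12.7% of all genes were called lower. The other 5 satellite cell markers had positive values in that comparison, and the median of the 6 was 0.26.

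## Promoters of the members that moved with exercise

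Klf and Sp factors bind GC boxes, and the promoters of Klf genes hold such boxes themselves. The promoters are shown for the members called in the exercise comparisons, of which Klf2 was lower and the others higher in fatigued muscle. RefSeq promoters of 300 bases, 250 before to 50 after the start (GRCm38.p6), matched 8 of the 10 members, all but Klf5 and Klf10. The GC box was searched as GGGCGG or its reverse complement CCGCCC. It was present in 35.7% of 32851 promoters. It was present in 7 of the 8 members, all but Klf9. The CACCC box, CACCC or GGGTG, was present in 57.5% of all promoters and in 5 of the 8 members, all but Klf4, Klf6 and Klf11. The promoters of the members held 63.0% to 77.7% G and C, against a median of 52.7% over all promoters. The sequences run 5′ to 3′ on the strand of the gene, with GC boxes in capitals: Klf2 at chr8:72318812-72319111 (+, 2 boxes), Klf3 at chr5:64803271-64803570 (+, 6 boxes), Klf4 at chr4:55532426-55532725 (-, 4 boxes) and Klf13 at chr7:63938866-63939165 (-, 3 boxes). Matches are a description of the letters and say nothing of binding.
Klf2: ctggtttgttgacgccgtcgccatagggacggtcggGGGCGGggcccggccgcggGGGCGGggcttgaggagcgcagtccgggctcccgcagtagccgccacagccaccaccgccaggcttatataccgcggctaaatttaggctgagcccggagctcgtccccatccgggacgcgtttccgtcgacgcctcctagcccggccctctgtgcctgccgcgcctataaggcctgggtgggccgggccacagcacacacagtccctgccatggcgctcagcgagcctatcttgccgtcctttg
Klf3: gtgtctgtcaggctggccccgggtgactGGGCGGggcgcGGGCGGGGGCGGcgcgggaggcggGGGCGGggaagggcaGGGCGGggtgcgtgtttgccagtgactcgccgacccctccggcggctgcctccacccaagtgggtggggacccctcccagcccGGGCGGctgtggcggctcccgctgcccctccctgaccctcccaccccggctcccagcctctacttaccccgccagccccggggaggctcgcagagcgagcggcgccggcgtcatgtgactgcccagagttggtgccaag
Klf4: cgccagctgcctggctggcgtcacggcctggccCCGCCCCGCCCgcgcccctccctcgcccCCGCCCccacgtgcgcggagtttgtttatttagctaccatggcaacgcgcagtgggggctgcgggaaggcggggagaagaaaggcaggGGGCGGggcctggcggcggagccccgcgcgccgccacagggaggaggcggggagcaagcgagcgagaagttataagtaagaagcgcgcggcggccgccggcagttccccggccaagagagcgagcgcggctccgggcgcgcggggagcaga
Klf13: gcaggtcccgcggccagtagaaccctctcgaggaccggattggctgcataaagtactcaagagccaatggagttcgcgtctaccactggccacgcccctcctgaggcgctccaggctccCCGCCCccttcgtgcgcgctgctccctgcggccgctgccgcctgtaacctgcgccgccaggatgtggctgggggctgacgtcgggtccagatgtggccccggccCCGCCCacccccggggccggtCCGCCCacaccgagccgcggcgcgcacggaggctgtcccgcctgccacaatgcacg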

How the data were processed

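The authors deposited whole-number counts per gene for each mouse, without normalization. The submitters' processing notes name GRCm38, Trimmomatic, STAR 2.7.1a, Picard 2.20.4, StringTie 2.0.4, featureCounts 1.6.0 and HTSeq, with no role, strand setting or annotation release. Of 55487 identifiers, 55227 matched GENCODE M21, used for symbols, lengths and GC content. Totals ran from 43271093 to 68726155 per mouse.

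Tests used R 4.3.3 with edgeR 4.0.16 (TMM, minimum count of 10 in filterByExpr, quasi-likelihood fits with robust dispersion). P-values were adjusted by Benjamini-Hochberg over every gene tested, with a threshold of 0.05. PBMT was compared with control in the 12 mice of each project, and the other comparisons used all 24 mice. The exact permutation test (924 arrangements, two-sided, log2 CPM with a prior count of 2) and the 100000 permutations for correlations used SciPy 1.17.1 and NumPy 2.4.6 in Python 3.11.15, with pandas 2.3.3 and Matplotlib 3.10.9. The code was checked on simulated data.

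Named genes are the 10 members, every called gene of each list or else up to 3 genes with the smallest p, and the 2 genes most like each member. The members and lists were chosen with earlier results of these data known.

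Alternatives were DESeq2 1.42.0 or its size factors alone, limma 3.58.1 voom with sample quality weights, a fit with no filter or a stricter one (10 counts or more in each sample), removal of length or GC trends (loess, span 0.3), replicate numbers as a block, another set of mice in the fit, a prior count of 0.5, the longest transcript as length, and leaving out each mouse in turn.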

Additional observations from a re-analysis of the deposited data

Results flagged for a closer look

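Of 48 groups of 6 mice looked at (each member, the total count and the mitochondrial percentage in each group), 4 held a mouse far from the others. Chance alone marks about 1 in 20 groups, which is 2.4 of 48. Sedentary control replicate 4 had 43.3 CPM of Klf2 (next highest 24.1) and 3.24% mitochondrial counts (next lowest 15.5%). Fatigued PBMT replicate 3 had 52.2 CPM of Klf4 (next highest 33.0), and fatigued PBMT replicate 1 had 91.4 CPM of Klf15 (next highest 60.4).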

How the results depend on the processing

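Alternatives were tried for each comparison, and leaving out sedentary control replicate 4 in the permutation tests and correlations was added after the data were seen. The cause of the changes below was not tested. The number of members called was the same in 135 of 140 alternatives and larger by 1 in the other 5. Of 1400 values of members, 1336 kept their sign and call, 5 were called only in the alternative and 59 changed sign, and the 13 results of members with a change of sign were not called. The number of genes called for PBMT in sedentary muscle (4) was 16 with no filter, 60 with DESeq2, 50 with voom, 12 with the length trend removed, 16 with the GC trend removed, 1 with all 24 mice in the fit, 11 with the replicate block, and 2 to 20 with a mouse left out. In fatigued muscle (0) it was 2 with DESeq2 and 1 with the replicate block. Replicate numbers of different groups are different mice. Deviations from the group means had a median r of 0.178 between fatigued controls and fatigued PBMT mice of equal number, against -0.0480 between those of unequal number. Of these 6 pairs 4 were over 0.1 and 3 were best with their own number, and between any other 2 groups at most 1 of 6 met either. For the difference between PBMT effects (1) it was 1 to 3 with a mouse left out, and for fatigued minus sedentary muscle without PBMT (2809) it was 4945 with voom. Of the correlations (3 passed), 0 passed within the sedentary mice, 1 within the fatigued mice and 5 without sedentary control replicate 4. With the longest transcript as length, 6 of 10 members kept their place. Signs changed as follows for PBMT in sedentary muscle: Klf2, -0.17 to 0.14 with a mouse left out, 0.16 with voom, 0.0400 with the GC trend removed, and 0.13 in the permutation test without sedentary control replicate 4. For PBMT in fatigued muscle, values with a mouse left out ran from -0.12 to 0.15 (Klf2), -0.0772 to 0.12 (Klf3), -0.0403 to 0.26 (Klf4), -0.0602 to 0.0440 (Klf11), -0.0626 to 0.0862 (Klf13), -0.0883 to 0.13 (Klf15) and -0.00152 to 0.0811 (Ncor1). With voom they were 0.0386 (Klf2), -0.0123 (Klf3) and -0.0347 (Klf15). With the replicate block they were 0.0444 (Klf2) and 0.00499 (Klf11). Klf11 was 0.000671 with at least 10 counts in every sample and 0.000238 with the size factors of DESeq2. For the difference between PBMT effects, values with a mouse left out ran from -0.15 to 0.24 (Klf2), -0.0147 to 0.18 (Klf3), -0.0528 to 0.38 (Klf5) and -0.11 to 0.27 (Klf10), and Klf2 was -0.12 with voom and -0.0500 with the GC trend removed. Without PBMT, Klf10 ran from -0.0333 to 0.33 between fatigued and sedentary muscle with a mouse left out. With PBMT, Klf9 ran from -0.0538 to 0.0470, and was -0.0257 with voom, -0.00416 with the replicate block and -0.0141 with the length trend removed. Other values of members moved by over 1.5 times with a mouse left out and kept their sign: for PBMT in fatigued muscle, 0.12 to 0.26 (Klf6), 0.17 to 0.61 (Klf5), 0.0217 to 0.12 (Klf9) and 0.35 to 0.72 (Klf10); for the difference between PBMT effects, 0.19 to 0.35 (Klf6), 0.32 to 0.66 (Klf4), -0.33 to -0.15 (Klf11), 0.0894 to 0.33 (Klf15) and 0.10 to 0.21 (Klf9); for fatigued minus sedentary muscle without PBMT, 0.00455 to 0.18 (Klf11) and 0.13 to 0.31 (Klf15); for the same with PBMT, 0.0722 to 0.23 (Klf6), -0.20 to -0.0813 (Klf11) and 0.13 to 0.36 (Klf10); for PBMT in sedentary muscle, -0.15 to -0.0393 (Klf6), 0.14 to 0.33 (Klf5), -0.14 to -0.0261 (Klf3), -0.27 to -0.0565 (Klf15) and -0.14 to -0.0306 (Klf9).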

Other observations

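Exercise and sequencing project split the mice in the same way, so the exercise comparisons measure both together. The counts describe RNA in whole TA muscle at a single time, and neither protein nor the binding of Klf factors to DNA was analysed here. The PBMT comparisons rest on 6 mice a group, and a member that was not called is not thereby shown to be unchanged. Lists were written from general knowledge and overlap in function.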
